A study of Mus musculus with 4 samples.

Results

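Gnao1 and 9 other genes of heterotrimeric G protein signalling, Gnai2, Gnas, Rgs2, Rgs3, Rgs5, Rgs6, Rgs7, Rgs13 and Rgs20, are described here across cell classes and genotypes of the adult mouse heart. They are 10 of the 32285 mouse genes in the count matrices, found by symbol. They were picked with earlier results of these libraries in view, among them the levels of Gnao1, Rgs7 and Rgs13, so their values are a description and carry no test. The data are single-nucleus RNA counts from 6-month-old C57BL/6 mice, with 1 library for each of 4 genotypes and 3 hearts pooled in each library. Mice carrying no mutation (WT) stand beside heterozygous (Rbm20_het) and homozygous (Rbm20_homo) carriers of an Rbm20 mutation, and beside homozygous carriers given gene editing correction (the corrected library). RBM20 is a splicing regulator of heart muscle transcripts such as titin, and mutations in it cause dilated cardiomyopathy. Which mutation the mice carry, and how and when the editor was given, is not stated in the sources used here. With n = 1 library per genotype there is no spread between hearts to compare with. Where 4 values stand in a row, they are given in the order wild type, heterozygote, homozygote, corrected. Intervals in square brackets are 95% intervals of counting error only, and a difference between genotypes cannot be told apart from a difference between pools of hearts or libraries.

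A heterotrimeric G protein carries the signal of a receptor into the cell through its alpha subunit and its beta-gamma pair. Gnas encodes the stimulatory alpha subunit that couples beta-adrenergic receptors to adenylyl cyclase, Gnai2 an inhibitory one that couples muscarinic and other receptors, and Gnao1 the Go alpha subunit, best known from brain. Regulators of G protein signalling (RGS proteins) speed up GTP hydrolysis by the alpha subunit and so end the signal. Rgs6 and Rgs7 belong to the R7 family, which works as a complex with the beta subunit Gnb5 and is held at the membrane by Rgs7bp. In the heart Rgs6 is known for limiting vagal slowing of the beat. Rgs2, Rgs3, Rgs5 and Rgs13 are regulators of the R4 family, of which Rgs2 favours Gq and Rgs5 is a widely used pericyte marker. Rgs20 belongs to a family known for acting on Gz.

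The bases before the start of 3 members are shown because the level of Gnao1 was highest in Rbm20_homo cardiomyocytes, whereas those of Rgs7 and Rgs13 were lowest there. Each run is the 250 bases before the RefSeq start (GRCm38.p6), 5′ to 3′ on the gene's strand, with CG dinucleotides in capitals. The Gnao1 window lies at chr8:93810588-93810837 on the plus strand. It sits within the GENCODE gene and partly in an exon of a retained-intron transcript. The Rgs7 window lies at chr1:175492546-175492795 and the Rgs13 window at chr1:144177373-144177622, both on the minus strand and free of annotated exons.
Gnao1: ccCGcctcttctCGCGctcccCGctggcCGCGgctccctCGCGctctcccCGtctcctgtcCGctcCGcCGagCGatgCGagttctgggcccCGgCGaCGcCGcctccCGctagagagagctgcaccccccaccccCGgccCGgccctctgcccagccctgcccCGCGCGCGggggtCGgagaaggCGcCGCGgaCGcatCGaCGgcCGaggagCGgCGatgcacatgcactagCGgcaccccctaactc
Rgs7: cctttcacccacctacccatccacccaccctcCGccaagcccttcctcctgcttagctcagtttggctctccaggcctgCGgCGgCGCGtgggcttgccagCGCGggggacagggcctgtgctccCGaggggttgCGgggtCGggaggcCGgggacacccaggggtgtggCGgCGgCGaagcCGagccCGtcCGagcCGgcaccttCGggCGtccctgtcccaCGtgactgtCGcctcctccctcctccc
Rgs13: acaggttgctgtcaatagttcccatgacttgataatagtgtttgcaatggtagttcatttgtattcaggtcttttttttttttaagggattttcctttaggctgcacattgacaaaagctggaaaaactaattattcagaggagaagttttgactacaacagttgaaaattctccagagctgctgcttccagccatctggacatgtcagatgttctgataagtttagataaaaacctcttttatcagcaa
The Gnao1 window held 36 CG dinucleotides at 76.4% G and C, and the Rgs7 window 22 at 72.4%. The Rgs13 window held 0 at 36.0% G and C. Over the 32544 different promoter sequences of the table the medians were 6 CG dinucleotides and 52.4% G and C. Both strands were searched for the GC box GGGCGG, the TATA box TATAAA, the GATA motif AGATAA, the E-box CACGTG and the cAMP response element TGACGTCA. These letters were found in 33.0%, 12.3%, 9.97%, 6.03% and 1.55% of all windows of the same length, in that order. In these 3 windows the matches were 1 CACGTG starting 29 bases before the Rgs7 start and 1 AGATAA starting 25 bases before the Rgs13 start. A match of letters is no evidence of a bound factor. The table has entries for 8 of the 10 members, without Gnai2 and Rgs20.

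After filtering, 8681 to 13144 nuclei per library remained, with median depths of 2362 to 3146 UMIs (unique molecular identifiers, 1 per counted RNA molecule). Pairs of libraries shared 26 to 56 cell barcodes. Nuclei were grouped into 12 classes by markers, with the members and the pathway list left out of the genes used for clustering. Ventricular cardiomyocyte-like nuclei numbered 2985, 2470, 2989 and 3123, and their clusters had 13 to 15 of 19 cardiomyocyte markers enriched. The unit of level, CPM, is a gene's UMIs out of each 1000000 non-mitochondrial UMIs summed over a class. In the cardiomyocyte-like class Malat1 took 24.0% of the UMIs of Rbm20_homo against 14.4% to 15.3% in the other libraries, and the median log2 ratio of Rbm20_homo over WT over 13184 genes was −0.19 (−0.02 with Malat1 left out of the total). Between 9.02% and 11.2% of nuclei of a library stayed unnamed, mostly in clusters with markers of more than 1 type. Rbm20 itself was at 4515, 4547, 3792 and 4679 CPM in cardiomyocyte-like nuclei, and counts do not show the mutation. UMIs of the added features ABE_C and ABE_N numbered 8542 in the corrected library and 0 in the others.

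Gnao1, the Go alpha subunit, was the member furthest above WT in Rbm20_homo cardiomyocyte-like nuclei. Wild type stood at 31.2 CPM [28.5 to 34.0], the heterozygote at 134 [128 to 140], the homozygote at 351 [343 to 359] and the corrected library at 105 [99.8 to 110]. No interval overlapped another: WT was lowest, Rbm20_homo highest, and the corrected library lay just below Rbm20_het. The Gnao1 ratio was 11.3-fold for Rbm20_homo over WT [10.3 to 12.3] and 4.29-fold for Rbm20_het over WT [3.90 to 4.73]. In the largest cardiomyocyte cluster of each library the log2 ratio of Rbm20_het over WT was 2.77 in place of 2.10. Those were different clusters, 2 in WT and 6 in Rbm20_het, so that ratio mixes cluster and genotype. The corrected library was 3.35-fold below Rbm20_homo [3.18 to 3.54] and 3.36-fold above WT [3.04 to 3.72]. These comparisons share libraries. The gene spans chr8:93809966-93969388 on the plus strand (GRCm38). 4930488L21Rik, annotated on the opposite strand within it, had 28, 106, 382 and 101 UMIs against 514, 2142, 7026 and 1681 of Gnao1. Whether the counting used strand is not given in the sources used here, so reads of such pairs cannot be told apart.

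**Figure D1:**
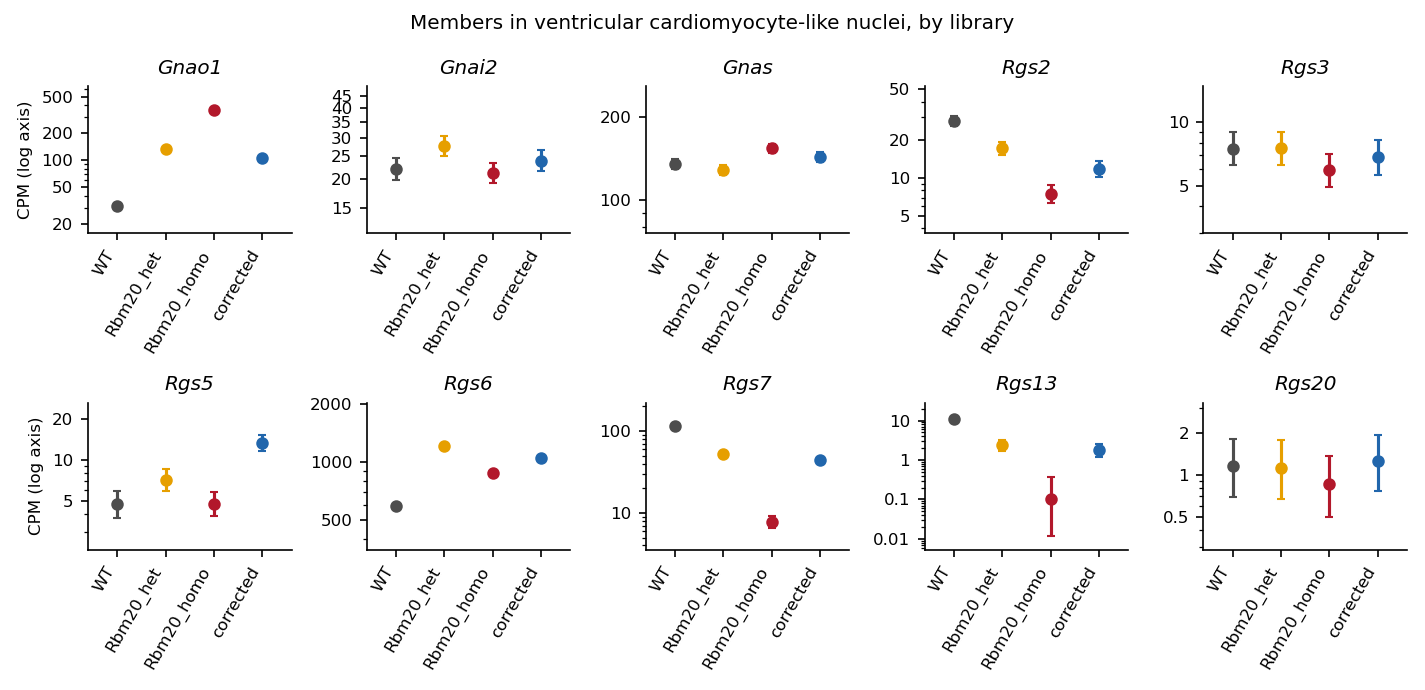
Level of each of the 10 members in ventricular cardiomyocyte-like nuclei (CPM, log axis) in the 4 libraries; points are summed UMIs of 1 library and bars are exact Poisson 95% intervals of counting error. Gnao1 runs from 31.2 CPM in WT to 351 in Rbm20_homo, whereas Rgs7 runs from 115 to 7.75.

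Counted per nucleus, at least 1 Gnao1 UMI was found in 12.2% of wild-type cardiomyocyte-like nuclei [11.1 to 13.5], 44.5% of heterozygous [42.5 to 46.5], 78.3% of homozygous [76.8 to 79.8] and 31.3% of corrected ones [29.6 to 32.9]. Nuclei with 5 or more Gnao1 UMIs made up 14.9% in Rbm20_homo and 0.369% in WT. Median depth differed, at 4879, 5728, 5936 and 4521 UMIs per nucleus. At 1000 UMIs per nucleus, which left out 1 WT nucleus and 4 corrected ones, the Gnao1 shares were 2.68%, 12.3%, 27.4% and 10.6%. The order of the 4 libraries was the same at matched depth. As a gauge of free RNA, the same shares in endothelial-like nuclei at 1000 UMIs were 1.17%, 3.03%, 3.48% and 2.18%.

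**Figure D2:**
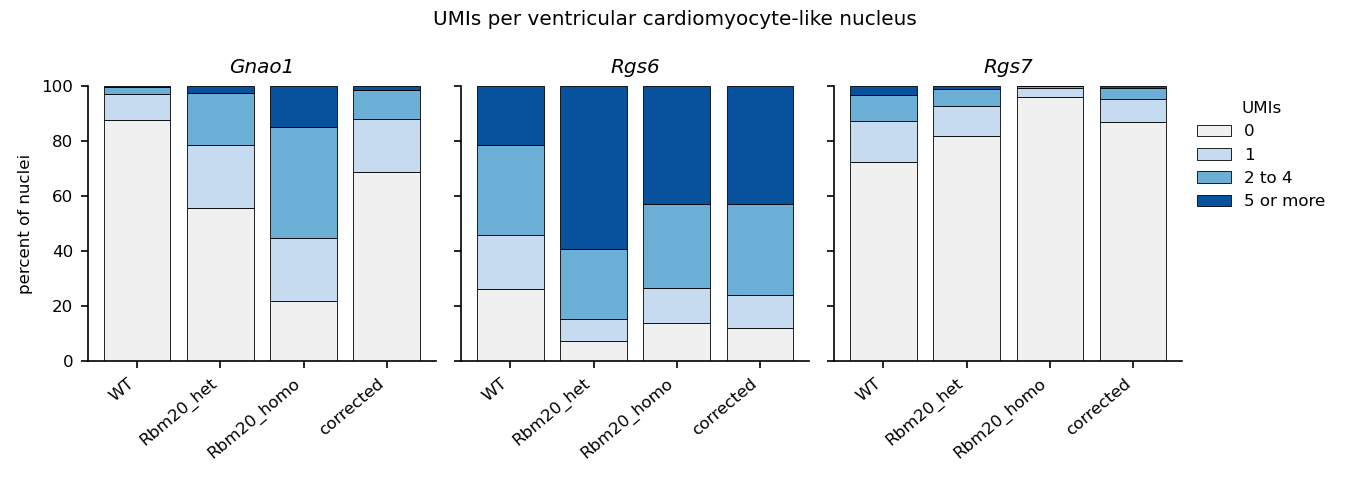
Share of ventricular cardiomyocyte-like nuclei (percent, linear axis) with 0, 1, 2 to 4 and 5 or more UMIs of Gnao1, Rgs6 and Rgs7 in each library, without thinning. The class without a Gnao1 UMI shrinks from 87.8% in WT to 21.7% in Rbm20_homo, while that without an Rgs7 UMI grows from 72.5% to 96.0%.

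The cardiomyocyte-like class held 4 clusters that the libraries filled unequally. Cluster 2 had 2544 of the WT nuclei and 42 of Rbm20_homo, cluster 3 had 70 and 2781, cluster 6 held 1315 nuclei of Rbm20_het, and cluster 21 had 56 to 75 nuclei of each library. Gnao1 differed between libraries inside each of the larger clusters. In cluster 2 it was at 20.9, 96.3, 264 and 72.5 CPM, and in cluster 3 at 88.7, 211, 353 and 230 CPM. In cluster 21 the levels were 156, 164, 311 and 103 CPM, where Rbm20_het was not resolved from WT (1.05-fold, 0.772 to 1.43). Gnao1 also differed between clusters of 1 library: cluster 3 was 4.24-fold above cluster 2 in WT [2.91 to 6.01], 2.19-fold in Rbm20_het [1.86 to 2.57], 3.18-fold in the corrected library [2.78 to 3.63] and 1.34-fold in Rbm20_homo [1.01 to 1.80]. The 42 Rbm20_homo nuclei in the mostly WT cluster 2 had a Gnao1 level nearer to that of their own library than to that of WT nuclei of the same cluster.

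**Figure D3:**
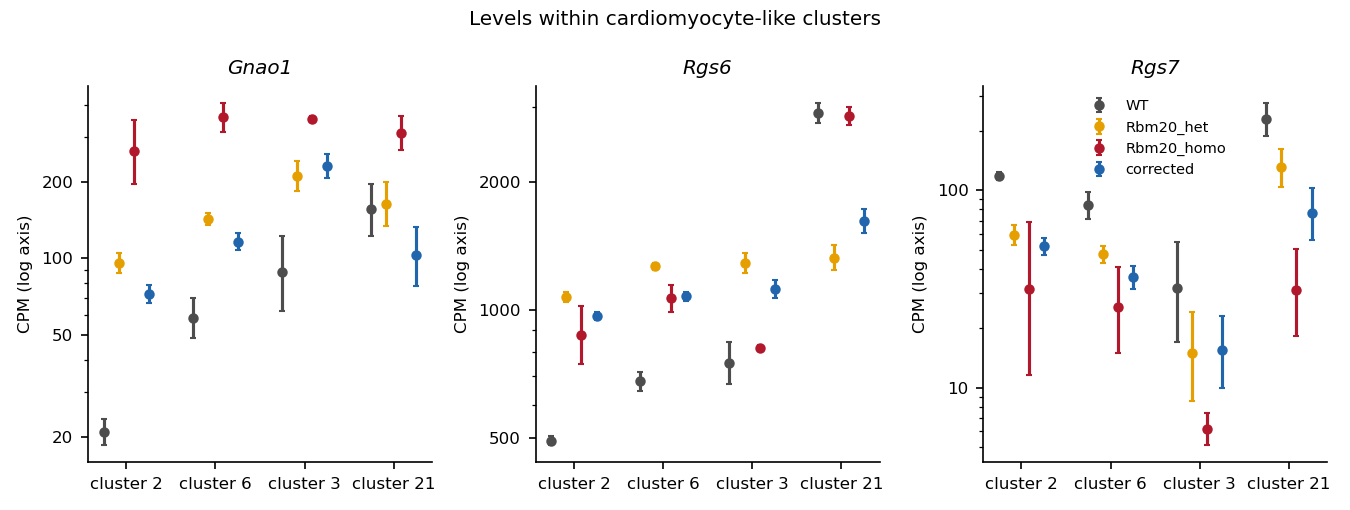
Level of Gnao1, Rgs6 and Rgs7 (CPM, log axis) in the 4 cardiomyocyte-like clusters by library; bars are exact Poisson 95% intervals of counting error. Gnao1 is lowest in WT nuclei of cluster 2 (20.9 CPM), and Rgs6 is highest in cluster 21 of WT and Rbm20_homo (2911 and 2862 CPM).

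The other alpha subunits among the members stayed within 2-fold between libraries in cardiomyocyte-like nuclei. Gnas, the stimulatory subunit, was at 136, 129, 154 and 143 CPM, with 1.13-fold for Rbm20_homo over WT [1.07 to 1.20]. Gnas carries antisense neighbours: Gm20721 had 163, 157, 357 and 148 UMIs in the class against 2239, 2062, 3083 and 2300 of Gnas. Gnai2, the inhibitory subunit, was at 22.1, 27.7, 21.2 and 23.9 CPM, and the Rbm20_homo level was 0.960 times that of WT [0.833 to 1.11]. Under median-of-ratios scaling the log2 ratio of Gnai2 was 0.13 in place of −0.06, so its direction turns with the scaling.

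The R7 regulators Rgs6 and Rgs7 went in opposite directions in cardiomyocyte-like nuclei. For Rgs7, wild type stood at 115 CPM [110 to 120], the heterozygote at 52.1 [48.6 to 55.8], the homozygote at 7.75 [6.58 to 9.07] and the corrected library at 43.6 [40.5 to 47.0]. WT was highest, Rbm20_homo lowest, and the intervals of the 4 libraries did not overlap. Relative to WT, Rgs7 was 14.8-fold lower in the homozygote [12.6 to 17.6], 2.21-fold lower in the heterozygote [2.03 to 2.40] and 2.64-fold lower after correction [2.41 to 2.88]. The corrected library was 5.63-fold above Rbm20_homo [4.73 to 6.75]. The share of nuclei with an Rgs7 UMI was 27.5%, 18.3%, 3.98% and 13.3%. At 1000 UMIs per nucleus it was 9.12%, 4.45%, 0.970% and 3.69%, and in endothelial-like nuclei at that depth 2.07%, 1.32%, 0.340% and 1.29%. In cardiomyocyte-like nuclei Rgs7 also differed between clusters of 1 library: within WT, cluster 3 was 3.69-fold below cluster 2. The 14.8-fold ratio of the class thus mixes cluster and genotype. Rgs7 was at 118, 59.1, 31.7 and 52.1 CPM in cluster 2, and at 32.0, 14.9, 6.18 and 15.6 CPM in cluster 3. In cluster 6 it was at 83.8, 47.3, 25.6 and 36.2 CPM. WT was highest and Rbm20_homo lowest in each, with 6 Rbm20_homo UMIs in cluster 2 and 13 WT UMIs in cluster 3. Rgs7 spans chr1:175059087-175492500 on the minus strand.

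Rgs6 was at 593, 1214, 878 and 1047 CPM. The other 3 libraries were all above WT, and the highest was Rbm20_het, not Rbm20_homo. Over WT the Rgs6 ratio was 2.05-fold for Rbm20_het [2.0 to 2.10], 1.48-fold for Rbm20_homo [1.44 to 1.52] and 1.77-fold for the corrected library [1.72 to 1.81]. At 1000 UMIs per nucleus 35.7%, 61.3%, 46.8% and 55.5% of nuclei had an Rgs6 UMI, so the heterozygote was also highest at matched depth, and endothelial-like nuclei had 4.95%, 11.3%, 5.09% and 12.9%. Inside cluster 2 the Rgs6 ratio was 2.18-fold for Rbm20_het over WT [2.10 to 2.26] and 1.96-fold for the corrected library over WT [1.90 to 2.03]. For Rbm20_homo over WT it was 1.78-fold in cluster 2 [1.51 to 2.07] and 1.57-fold in cluster 6 [1.43 to 1.72]. In cluster 3, which held most Rbm20_homo nuclei and 70 of WT, the Rbm20_homo ratio of 1.08 was not resolved from 1 [0.967 to 1.22]. Cluster 21, with Grip1, Cntn2 and Cpne5 among its leading genes and 3 of 8 atrial markers beside 15 of 19 ventricular ones, had Rgs6 at 2911, 1329, 2862 and 1620 CPM. There WT and Rbm20_homo were the high libraries, an order unlike that of the other clusters. Rgs7 in cluster 21 was at 229, 131, 31.3 and 76.7 CPM, in the order seen in the whole class.

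The R4 regulators Rgs2 and Rgs13 were lower in Rbm20_homo cardiomyocyte-like nuclei, and Rgs3 differed by less than its counting error. Rgs2, which favours Gq, was at 28.0, 17.1, 7.50 and 11.8 CPM. Rbm20_homo was 3.73-fold below WT [3.10 to 4.51], and the corrected library 1.58-fold above Rbm20_homo [1.27 to 1.97] and 2.36-fold below WT [1.99 to 2.81]. In the largest cluster of each library 2 further Rgs2 ratios passed 2-fold. The log2 ratio was −1.04 for Rbm20_het over WT and 1.08 for the corrected library over Rbm20_homo. That cluster was 2 in WT and the corrected library, 6 in Rbm20_het and 3 in Rbm20_homo, so these ratios mix cluster and genotype. Within WT, Rgs2 was at 30.8 CPM in cluster 2 and at 9.85 in cluster 3, the latter from 4 UMIs. Inside cluster 2 Rgs2 was at 30.8, 22.8, 5.28 and 14.3 CPM. WT was highest there, and the Rbm20_homo level rested on 1 UMI [0.134 to 29.4]. Inside cluster 3 Rbm20_homo was 1.46-fold below WT [0.391 to 3.82] and inside cluster 6 it was 1.48-fold above [0.721 to 2.88]. The lower Rgs2 level of the class was thus not resolved within clusters 3 and 6. In cluster 3 the corrected library was at 7.13 CPM and Rbm20_homo at 6.77. Rgs13, known from germinal centre B cells and mast cells, was at 10.9, 2.37, 0.10 and 1.75 CPM. These levels rest on 180, 38, 2 and 28 UMIs, those of WT spread over 151 nuclei. With 2 UMIs, the Rgs13 ratio was 109-fold below WT with an interval of 29.8 to 909. At 1000 UMIs per nucleus the log2 ratio was −4.91 in place of −6.77. The Rgs13 ratio of the class also mixes cluster and genotype. In cluster 2 WT had 163 Rgs13 UMIs and the 42 Rbm20_homo nuclei 0, with an interval reaching above the WT level. In cluster 3 the 70 WT nuclei had 0 and Rbm20_homo 2. The lower Rgs13 level was thus not resolved within clusters 2 and 3. In cluster 6 WT had 15 UMIs and the 102 Rbm20_homo nuclei 0, with overlapping intervals of level. B cell-like nuclei held 1, 0, 0 and 2 Rgs13 UMIs.

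Rgs3 was at 7.52, 7.56, 5.95 and 6.86 CPM in cardiomyocyte-like nuclei. Its Rbm20_homo to WT ratio of 0.791 had an interval of 0.610 to 1.03. Rgs5 was at 4.79, 7.18, 4.8 and 13.3 CPM, so the corrected library was 2.78-fold above WT [2.14 to 3.65] and also 2.78-fold above Rbm20_homo [2.18 to 3.58]. At 1000 UMIs per nucleus the log2 ratio of Rgs5 over Rbm20_homo was 0.88 in place of 1.48, under 2-fold. The 9 pericyte markers summed to 407, 247, 172 and 354 CPM in the same nuclei, with none at 0. Rgs5 in cluster 21 of the corrected library was at 111 CPM against 22.1 to 22.9 in the other libraries, and in cluster 2 at 10.7 CPM against 4.20 in WT. The part of pericyte RNA in the Rgs5 values was not tested. Rgs20 had 17 to 20 UMIs in each library of the class, about 1 CPM, and no difference was detectable at this depth.

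Counted against all genes, a difference was called when the CPM ratio was at least 2 in either direction and the 2 libraries together held at least 50 UMIs. In Rbm20_homo over WT, 9 of the 10 members had 50 UMIs (not Rgs20). Of these, 1 (Gnao1) was higher and 3 (Rgs2, Rgs7, Rgs13) lower, where 6.11% and 9.07% of 13184 genes were higher and lower. For Rbm20_het over WT, 2 (Gnao1, Rgs6) were higher and 2 (Rgs7, Rgs13) lower, against 1.8% and 1.58% of genes. For the corrected library over Rbm20_homo, 2 of 8 members (Rgs5, Rgs7) were higher and 1 (Gnao1) lower, against 5.44% and 4.39%. Rgs13, with 28 and 2 UMIs in that pair, was not among the 8. For the corrected library over WT, 2 of 9 (Gnao1, Rgs5) were higher and 3 (Rgs2, Rgs7, Rgs13) lower, against 1.78% and 2.15%. Since members were chosen with such ratios known, nothing is read from these counts. The median log2 ratio of Rbm20_homo over WT was −0.06 over the 9 members and −0.19 over all genes.

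**Figure D4:**
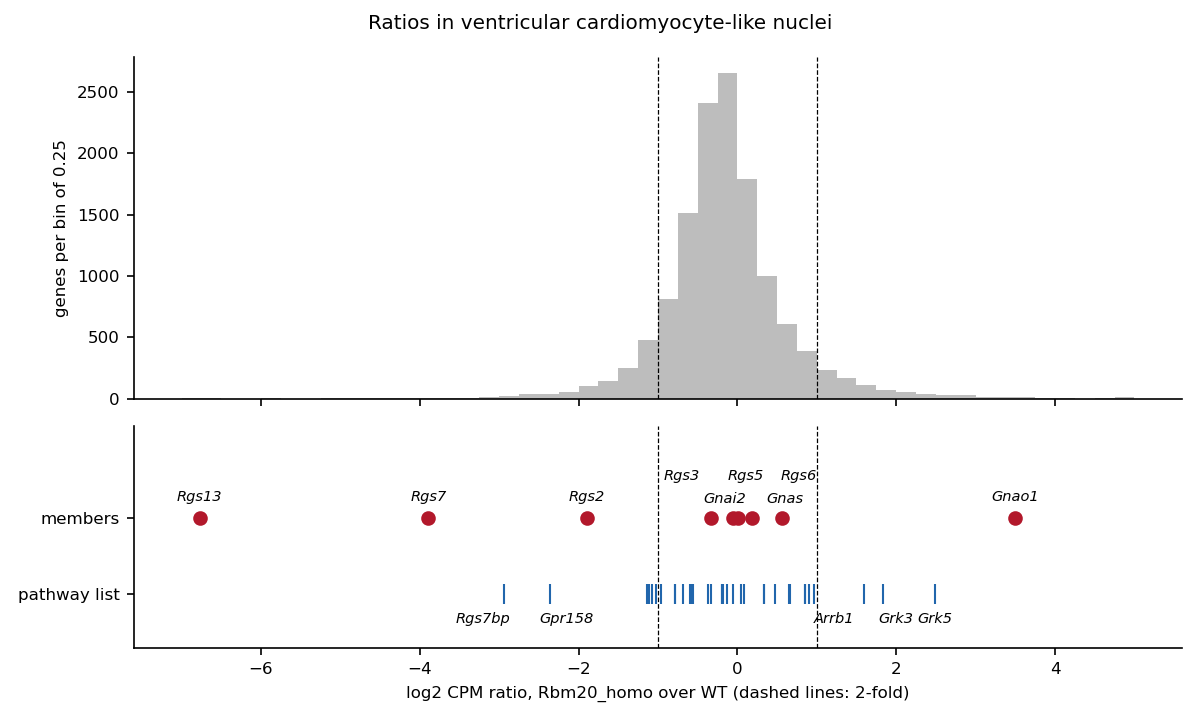
Number of genes by log2 CPM ratio of Rbm20_homo over WT in ventricular cardiomyocyte-like nuclei (upper panel, bins of 0.25, genes with at least 50 UMIs), with the 9 members and the pathway genes that reach 50 UMIs marked below. Gnao1 lies at 3.49 and Rgs13 at −6.77, while 5 members lie between the dashed 2-fold lines.

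Of a list of 56 other genes of the pathway, 34 had 50 UMIs in Rbm20_homo and WT cardiomyocyte-like nuclei, and 3 were at least 2-fold higher and 6 at least 2-fold lower, where 6.11% and 9.07% of all genes were. Under TMM or median-of-ratios scaling the counts were 7 higher and 2 lower, and the median of all genes moved from −0.19 to −0.01 or nearer to 0. The list's median log2 ratio was −0.18, beside −0.19 for all genes. By role, the 3 higher genes were receptor kinases and arrestins (3 of 7, with 0 lower). Of the 6 lower genes by CPM, 2 were alpha subunits (Gna12, Gnal), 1 a regulator (Rgs22), 2 RGS partners (Rgs7bp, Gpr158) and 1 a chaperone (Ric8a). Under the other scalings Rgs7bp and Gpr158 alone stayed past 2-fold lower, with log2 ratios of −0.84 for Gna12, −0.93 for Gnal, −0.90 for Rgs22 and −0.96 for Ric8a by TMM. The 4 genes then added on the higher side were the gamma subunits Gng3 and Gngt2 and the regulators Rgs11 and Rgs17, at 1.03 to 1.15. Grk3, Grk5 and Arrb1 were past 2-fold higher under each scaling.

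Of the partners of the R7 regulators, 2 were lower in Rbm20_homo along with Rgs7. Rgs7bp, the membrane anchor, was at 16.1, 7.12, 2.10 and 6.23 CPM, 7.66-fold lower in Rbm20_homo [5.51 to 10.9]. Gpr158, a receptor that binds Rgs7, was at 4.37, 2.31, 0.850 and 2.99 CPM, 5.14-fold lower [3.0 to 9.30]. Gnb5, the obligate beta subunit, was at 21.2, 20.5, 16.4 and 19.9 CPM and stayed within 2-fold. For Rgs7bp and Gpr158, as for Rgs7, WT was highest and Rbm20_homo lowest. Rgs7bp rested on 114 UMIs in Rbm20_het and 100 in the corrected library, and Gpr158 on 37 and 48, and no order between these 2 libraries is read.

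Receptor kinases phosphorylate active receptors, and arrestins then uncouple them from G proteins. Grk5 was at 95.5, 218, 534 and 322 CPM, 5.59-fold higher in Rbm20_homo than WT [5.31 to 5.90]. Grk3 was at 24.0, 62.1, 85.9 and 37.2 CPM, 3.58-fold higher [3.2 to 4.0]. Arrb1, beta-arrestin 1, was at 4.0, 12.9, 12.0 and 11.3 CPM, 3.01-fold higher [2.28 to 4.01]. Grk2, the other main cardiac receptor kinase, was at 11.1, 8.18, 7.55 and 8.73 CPM. The remaining genes that the naming rule gave were Ric8a, a chaperone of alpha subunits, at 6.73, 4.0, 3.05 and 4.43 CPM, Gnal, the olfactory-type alpha subunit, at 1.94, 1.37, 0.90 and 1.87 CPM, and Gng7 at 0.728, 1.5, 1.55 and 3.24 CPM. Gng7, with 31 and 12 UMIs in Rbm20_homo and WT, was not among the 34 counted genes.

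Across classes, WT expressed Gnao1 most in fibroblast-like nuclei, at 420 CPM [403 to 439]. Smooth muscle-like nuclei at 129 and pericyte-like nuclei at 126 CPM followed with overlapping intervals. WT cardiomyocyte-like nuclei were ninth of 12 classes, with endothelial-like (17), macrophage-like (13.4) and lymphatic endothelial-like nuclei (6.05 CPM) below them. In Rbm20_homo the cardiomyocyte-like class was second, at 351 CPM against 375 in fibroblast-like nuclei [363 to 387], and these 2 intervals did not overlap. The WT cardiomyocyte level of Gnao1 was 7.42% of that in WT fibroblast-like nuclei, where the 12 fibroblast markers in cardiomyocyte-like nuclei summed to 2.22% of their level in fibroblast-like nuclei, with none at 0. In Rbm20_homo the figures were 93.7% and 3.33%. Of a list of 8 neuron markers 1 or 2 were at 0 in cardiomyocyte-like nuclei, and the list summed to 4.24 to 6.45 CPM. Of 8 Schwann markers 1 to 3 were at 0, and they summed to 0.555% to 1.06% of their level in Schwann-like nuclei. The part of neural RNA in the Gnao1 level was not tested further.

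**Figure D5:**
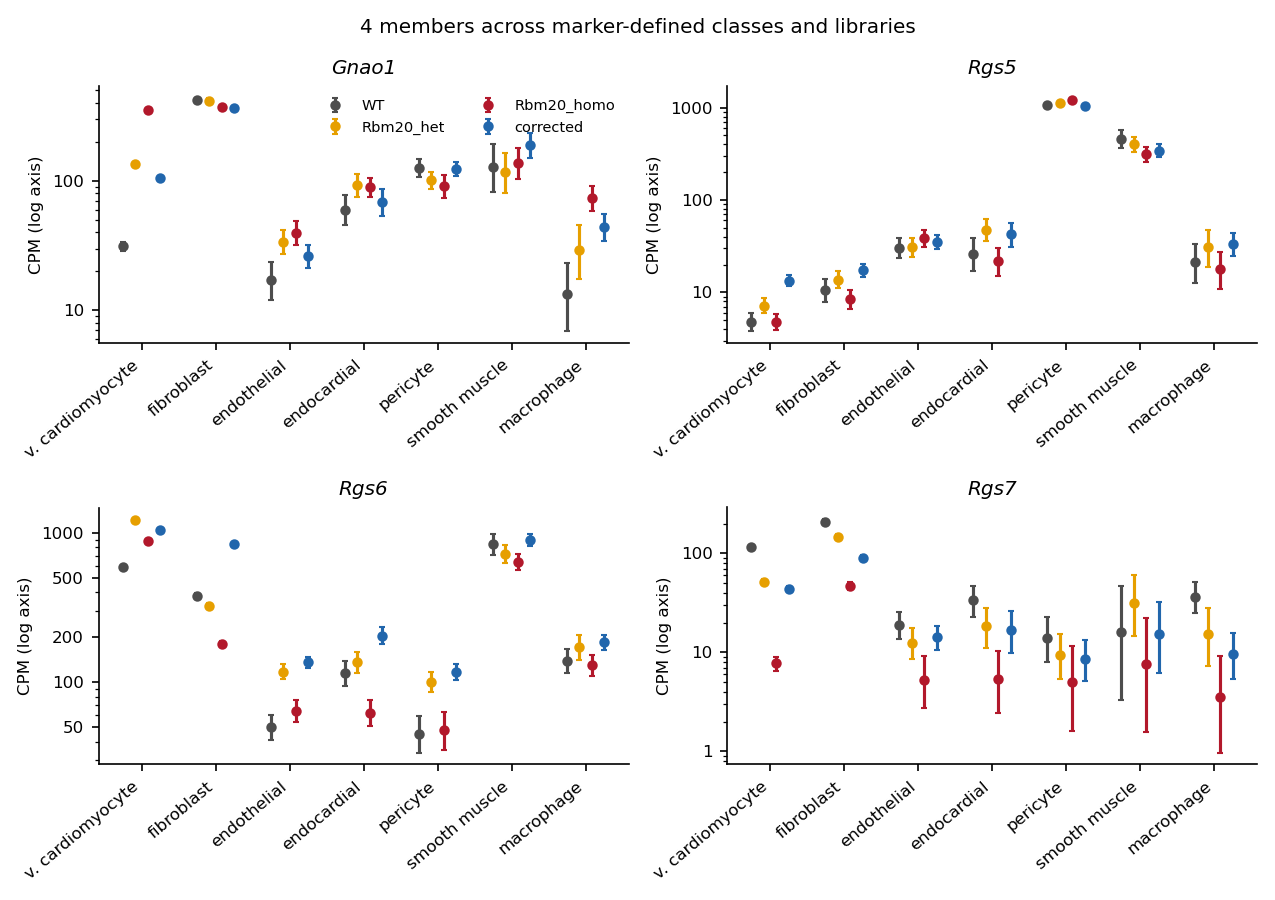
Level of Gnao1, Rgs5, Rgs6 and Rgs7 (CPM, log axis) in 7 marker-defined classes and 4 libraries, with exact Poisson 95% intervals of counting error. Rgs5 is highest in pericyte-like nuclei (1034 to 1214 CPM), and Gnao1 differs between libraries by 11.3-fold in cardiomyocyte-like nuclei while fibroblast-like nuclei lie at 364 to 420 CPM.

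The regulators had different leading classes. Rgs5 was at 1065, 1128, 1214 and 1034 CPM in pericyte-like nuclei and at 461, 403, 312 and 342 CPM in smooth muscle-like nuclei. Rgs3 led in endocardial-like nuclei with 559, 521, 478 and 628 CPM, followed by endothelial-like nuclei with 281, 292, 269 and 219 CPM. Both stayed within 2-fold between libraries in those classes. In WT Rgs6 was highest in smooth muscle-like nuclei (836 CPM), followed by cardiomyocyte-like (593) and fibroblast-like nuclei (375 CPM). Rgs7 in WT was highest in fibroblast-like nuclei (209 CPM) and second in cardiomyocyte-like nuclei (115 CPM), and these intervals did not overlap.

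The remaining members had lower or more even levels. Gnas was found in each class, from 136 CPM in WT cardiomyocyte-like nuclei to 586 in lymphatic endothelial-like nuclei. Gnai2 in WT was highest in endothelial-like nuclei (182 CPM) and next in macrophage-like nuclei (144 CPM). Rgs2 was at 47.9, 36.8, 22.3 and 38.3 CPM in macrophage-like nuclei, 2.14-fold below WT in Rbm20_homo [1.28 to 3.66]. The WT level of Rgs2 was 25.6 CPM in macrophage-like nuclei classed by markers alone, with cardiomyocyte-like nuclei then highest. Cardiomyocyte markers in macrophage-like nuclei summed to 24.8% of their cardiomyocyte level in WT and 18.8% in Rbm20_homo, and their part in the Rgs2 ratio was not tested. Rgs13 outside the cardiomyocyte-like class was at 9.19 CPM or less in each library. Rgs20 in WT was at 15.1 CPM in lymphatic endothelial-like nuclei, 10.6 in fibroblast-like nuclei and 18.3 in the 33 mesothelial-like nuclei.

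Fibroblast-like nuclei gave another pattern between libraries than cardiomyocyte-like nuclei. The class held 1917, 2310, 3057 and 3645 nuclei, and most Rbm20_homo nuclei (2657) lay in cluster 4 where those of WT (1550), Rbm20_het (1914) and the corrected library (3166) lay in cluster 0. Gnao1 was at 420, 417, 375 and 364 CPM, 1.12-fold below WT in Rbm20_homo [1.06 to 1.18]. Of 8 members with 50 UMIs, 0 were at least 2-fold higher in Rbm20_homo than WT and 3 lower (Rgs6, Rgs7, Rgs20), where 6.4% and 3.27% of 12401 genes were higher and lower. For Rbm20_het over WT 0 were higher and 0 lower, against 0.821% and 0.676% of genes. For the corrected library over Rbm20_homo 2 (Rgs5, Rgs6) were higher and 0 lower, against 3.45% and 4.59%, and over WT 1 (Rgs6) was higher and 1 (Rgs7) lower, against 1.84% and 1.07%. Rgs7 was at 209, 148, 47.4 and 89.4 CPM, in the order of the cardiomyocyte-like class, and 4.41-fold lower in Rbm20_homo [3.95 to 4.94]. Within cluster 0 the Rgs7 ratio was 2.34-fold lower [1.91 to 2.91], with levels of 254, 176, 108 and 101 CPM. In cluster 4, with 59 WT nuclei, Rgs7 was at 17.9 CPM in WT and 41.0 in Rbm20_homo, and that ratio had an interval from 0.779 to 11.2. The lower Rgs7 level of Rbm20_homo than WT in fibroblast-like nuclei thus held in cluster 0 and was not resolved in cluster 4. The library order of the class did not hold in cluster 0, where the corrected library (101 CPM) was not above Rbm20_homo (108 CPM).

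Rgs6 in fibroblast-like nuclei was at 375, 323, 181 and 837 CPM. Rbm20_homo was 2.07-fold below WT [1.94 to 2.22], and the corrected library 2.23-fold above WT [2.12 to 2.35] and 4.63-fold above Rbm20_homo [4.40 to 4.89]. The corrected library was thus the highest, past WT. Inside cluster 0 Rgs6 was at 336, 287, 251 and 854 CPM, with the corrected library again highest. In cluster 4 it was at 459, 316, 162 and 529 CPM, where the corrected library was not resolved from WT (1.15-fold, 0.890 to 1.51). In cluster 10 Rgs6 was at 525, 590, 663 and 866 CPM, so the lower level in Rbm20_homo did not hold there. Rgs6 was at 50.2, 118, 64.4 and 136 CPM in endothelial-like nuclei and at 45.3, 100, 47.9 and 117 CPM in pericyte-like nuclei. Rbm20_het was thus above WT there as well as the corrected library. Cardiomyocyte markers in endothelial-like nuclei summed to 14% of their cardiomyocyte level in WT and 14.6% in the corrected library, and Rgs6 there was 8.46% and 13% of its own. In pericyte-like nuclei the marker shares were 9.31% and 11.6%, and the Rgs6 shares 7.63% and 11.1%. The part of cardiomyocyte RNA in these Rgs6 levels was not tested, and they are not read as a difference between libraries. Rgs20 in fibroblast-like nuclei was at 10.6, 13.6, 4.47 and 7.58 CPM, 2.37-fold below WT in Rbm20_homo [1.55 to 3.65].

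Classes with little Gnao1 in WT also had WT as their lowest library. Gnao1 in endothelial-like nuclei was at 17, 33.8, 39.7 and 26.3 CPM. Gnao1 in macrophage-like nuclei was at 13.4, 29.1, 73.2 and 44.1 CPM, and in lymphatic endothelial-like nuclei at 6.05, 18.9, 30.7 and 32.9 CPM from 2 to 19 UMIs. Only the endothelial-like class had the library order of the cardiomyocyte-like class among these 3. Cardiomyocyte markers in Rbm20_homo summed to 13.1% of their cardiomyocyte level in endothelial-like nuclei and 18.8% in macrophage-like nuclei, and Gnao1 to 11.3% and 20.9% of its own. In WT the marker shares were 14% and 24.8%, and the Gnao1 shares 54.7% and 42.9%. Since cardiomyocyte markers were present in both classes, these Gnao1 levels are not read as a difference between libraries. In pericyte-like nuclei Gnao1 was at 126, 101, 90.8 and 124 CPM, with WT highest. Pathway genes named by the rule outside cardiomyocytes rested on few UMIs: Rgs17 in pericyte-like nuclei was 4.44-fold higher in Rbm20_homo than WT [2.0 to 11.2], Grk4 in macrophage-like nuclei 2.35-fold [1.55 to 3.66], and Gng8 in fibroblast-like nuclei 2.81-fold [1.75 to 4.72]. Rgs7bp in fibroblast-like nuclei was 2.09-fold higher [1.19 to 3.88], the opposite side from cardiomyocyte-like nuclei. Gng2 in endothelial-like nuclei was 3.45-fold [1.68 to 7.79] and Rgs17 in endocardial-like nuclei 2.17-fold higher [1.19 to 4.23].

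Within the corrected library, cardiomyocyte-like nuclei with a UMI of ABE_C or ABE_N could be set beside those without one. The 1243 nuclei with such a UMI had a median depth of 5315 UMIs, and the 1880 without one 4025. Gnao1 was at 67.6 CPM in the first set [61.8 to 73.7] and 138 in the second [130 to 146]. Rgs7 was at 53.2 CPM [48.1 to 58.7] against 35.1 [31.3 to 39.4], and Rgs13 at 3.05 [1.94 to 4.58] against 0.588 [0.191 to 1.37]. For these 3 genes the nuclei with an ABE UMI lay nearer to WT. Rgs6 was at 933 CPM [912 to 955] with an ABE UMI and 1148 [1125 to 1171] without one, so it too lay nearer to the WT level of 593. Rgs2 was at 11.8 and 11.9 CPM, so the sets were alike within counting error. Rgs5 was at 15.3 CPM [12.6 to 18.3] with an ABE UMI and 11.6 [9.46 to 14.2] without one, with overlapping intervals and both above the 4.79 of WT. Nuclei of both sets come from the same library, and deeper nuclei are more likely to show such a UMI.

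As a description of likeness, log2(CPM + 1) of each gene was correlated with that of Gnao1 over 28 points, 7 classes in 4 libraries, which share libraries and depth. The genes with the highest Pearson r among 11494 were Ugp2 (0.92), Hectd2 (0.90), Tbx20 (0.89), Ror1 (0.88) and Irs1 (0.87). Their cardiomyocyte levels differed less between libraries than that of Gnao1: Tbx20 was at 177 CPM in WT and 248 in Rbm20_homo, and Ugp2 at 102 and 148. For Rgs7 they were Sync (0.85), Ccbe1 (0.82), Unc13c (0.82), Bcl7a (0.82) and Arhgap21 (0.82). Ccbe1 was at 74.9 CPM in WT and 3.70 in Rbm20_homo cardiomyocyte-like nuclei, and Unc13c at 5.64 and 1.5 CPM.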

How the data were processed

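Nuclei were profiled by droplet 3′ RNA sequencing in 4 libraries, 1 per genotype. The values deposited by the authors are UMI counts of each gene in each nucleus, not normalized. Cell Ranger 6.1.1, Seurat 4 and mm10 (GRCm38) appear among the submitters' processing notes, and Cell Ranger 4.0.0 in the file headers. Counting of introns, use of strand and the barcode filter are not given in the sources used here. The labels speak of total cardiac nuclei, although the protocol text also mentions CD45+ cells.

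Barcodes with under 300 genes or over 5% mitochondrial UMIs were removed, as were those with the highest Scrublet scores at 0.8% per 1000 barcodes. That took 713, 749, 1069 and 1813 nuclei from WT, Rbm20_het, Rbm20_homo and the corrected library; Scrublet's own threshold marked 0, 1931, 732 and 2956 and was not used. Clustering used 2000 variable genes, 30 principal components, 20 neighbours and Leiden resolution 0.8 (scanpy 1.11.5, leidenalg 0.10.2), without integration. Classes were named from marker lists, with naming thresholds set after seeing the data. An unnamed cluster of 296 nuclei with 17 of 19 cardiomyocyte markers was kept out for its low depth (102, 46, 64 and 84 nuclei).

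UMIs were summed per class and library. Sums have exact Poisson, shares exact Clopper-Pearson and ratios exact conditional binomial intervals. Only the ratio intervals were tried on simulated counts. Those counts were drawn from a Poisson distribution, so the trial does not cover clumping of UMIs within nuclei. There was no test between genotypes. Named genes were the 10 members, up to 8 pathway genes past 2-fold in Rbm20_homo over WT with at least 100 UMIs over the 4 libraries in the cardiomyocyte-like class, up to 3 per other class, and the 5 genes most like Gnao1 and like Rgs7. Gnb5, Grk2 and the genes beside counts of 5 or fewer fall outside that rule and were chosen after their values were seen. Members and lists were chosen with earlier results of these data known. Alternatives were other scalings (edgeR 4.0.16 for TMM), filters, resolution, marker-only classes, thinning to 1000 UMIs and the largest cluster of each library. Sequences came from RefSeq (GRCm38.p6).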

Additional observations from a re-analysis of the deposited data

Results flagged for a closer look

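With 1 library per genotype these differences between classes were not tested. They are the members whose counting intervals lay on opposite sides of no change in cardiomyocyte-like and fibroblast-like nuclei, with at least 1 of the 2 past 2-fold. The log2 ratio of Gnao1 for Rbm20_homo over WT was 3.49 in cardiomyocyte-like and −0.17 in fibroblast-like nuclei. For the corrected library over WT, Gnao1 was at 1.75 and −0.21. Rgs6 for Rbm20_homo over WT was at 0.57 and −1.05, and for Rbm20_het over WT at 1.03 and −0.21.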

How the results depend on the processing

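Over 9 alternatives for each of 40 member ratios in cardiomyocyte-like nuclei, 292 of 360 values stayed within the counting interval of the reported one, 68 moved outside it and 0 of the ratios past 2-fold changed direction. Gnao1 in Rbm20_homo over WT ranged from a log2 ratio of 3.03 without doublet removal to 4.08 in the largest cluster of each library, and Rgs7 from −4.26 to −3.58. Of the counts of members past 2-fold, 1 of 72 moved by over 1.5 times: after thinning, 1 member in place of 2 was higher in the corrected library than in Rbm20_homo, since Rgs5 was at 0.88. In the largest clusters Rgs2 passed 2-fold for Rbm20_het over WT (−1.04) and for the corrected library over Rbm20_homo (1.08). There Gnao1 in Rbm20_het over WT was at 2.77 in place of 2.10. The largest cluster was 2 in WT and the corrected library, 6 in Rbm20_het and 3 in Rbm20_homo. Ratios in that setting thus mix cluster and genotype, except those of the corrected library over WT. The counts of all genes past 2-fold depend on the UMI minimum. At 10 and 200 UMIs, Rbm20_homo over WT gave 1401 and 460 higher and 2014 and 726 lower genes in place of 806 and 1196. Rbm20_het over WT gave 646 and 106 higher and 714 and 89 lower in place of 232 and 204. The corrected library over Rbm20_homo gave 1326 and 382 higher and 1172 and 308 lower in place of 713 and 575. Over WT it gave 667 and 98 higher and 833 and 126 lower in place of 230 and 277. More genes with few UMIs are tested at the lower minimum. Of 20 alternative WT levels in the leading class, 5 moved, and Rgs2 in macrophage-like nuclei fell from 47.9 to 25.6 CPM when nuclei were classed by markers alone, with cardiomyocyte-like nuclei then highest. No paired analysis was possible because each genotype has 1 library, and for the same reason no replicate could be left out.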
